A study of Homo sapiens with 8 samples.

Results

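The clustered protocadherins are cell-surface adhesion proteins encoded by 53 protein-coding genes in 3 neighbouring clusters on human chromosome 5. The members were taken by symbol, and they comprise 15 alpha genes, 16 beta genes and 22 gamma genes. Of these 53, 17 were listed in at least 1 of the 3 gene tables analysed here, which together list 1221 genes. All 17 belong to the gamma cluster.

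Libraries of total RNA freed of ribosomal RNA were made from K-562 cells, a human leukaemia line of erythroid character, in 4 groups of 2. The altered groups were TASOR knockout cells, TASOR knockout cells expressing a FLAG-TASOR transgene, and wild-type cells expressing a FLAG-TASOR2 transgene. The reference was the parental wild-type line that had received a negative guide RNA, and the labels name no guide for the FLAG-TASOR2 cells, so a difference in guide treatment cannot be told apart from the transgene. Per the labels' protocols, knockouts were grown from single sorted cells after CRISPR/Cas9 transfection, and lentivirus delivered either an empty vector or a tagged transgene. The sources used here do not say whether the 2 knockout libraries came from separate clones, nor which promoter drove the transgenes. As the reference was the parental line, growth from single cells cannot be told apart from the loss of TASOR in the knockouts.

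Each protocadherin gene of the alpha and gamma clusters has its own large first exon, which encodes the extracellular cadherin repeats and the membrane span, and is spliced to constant exons shared by the whole cluster. Each first exon has its own promoter, and neurons use different combinations of these promoters, which gives cells distinct surface identities. CTCF and cohesin, DNA methylation and heterochromatin proteins are known to govern promoter choice at these clusters. TASOR belongs to HUSH, the human silencing hub, which represses LINE-1 retroelements as well as some genes. TASOR2 is a related protein.

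The splice junctions show how the gamma members differ and what they have in common. In the GENCODE 29 transcripts, the last 24 bases of the variable exon (lower case) are followed by the first 24 bases of the first constant exon (capitals), shown for 4 genes listed in the knockout table and for 2 that were not listed, PCDHGA11 and PCDHGC3.
PCDHGA4: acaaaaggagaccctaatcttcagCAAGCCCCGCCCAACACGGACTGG
PCDHGA5: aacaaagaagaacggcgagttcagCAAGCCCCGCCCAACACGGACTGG
PCDHGA8: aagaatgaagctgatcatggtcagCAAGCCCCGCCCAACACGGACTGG
PCDHGB5: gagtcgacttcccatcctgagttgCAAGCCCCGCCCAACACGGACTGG
PCDHGA11: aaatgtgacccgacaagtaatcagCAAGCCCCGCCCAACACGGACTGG
PCDHGC3: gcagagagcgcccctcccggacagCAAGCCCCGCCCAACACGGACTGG
The capitals are identical in all 6, so a read from the constant exons carries no mark of the first exon it was spliced to. The gamma genes share 3 constant coding exons with 372 coding bases, at positions 141494807 to 141494865, 141505393 to 141505481 and 141510947 to 141511170 of chromosome 5 (GRCh38, plus strand). With untranslated sequence, 2181 exon bases belong to all 22 gamma genes.

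The promoters of the gamma members also resemble each other. RefSeq windows from 250 bases before to 50 bases after the annotated start (GRCh38.p14) were found for 20 of the 22 gamma genes, including all 17 listed ones. The sequence GNGNCGCTG, searched on both strands, was in 18 of these 20 genes and in 12.2% of all 27305 genes with a window. It was in 15 of the 17 listed genes, PCDHGB3 and PCDHGB7 being those without it, and in all 3 of the unlisted genes with a window. The windows below show it in capitals with 20 flanking bases on each side, for 6 listed genes and then for those 3 unlisted ones (PCDHGA11, PCDHGC3 and PCDHGC4).
PCDHGA4: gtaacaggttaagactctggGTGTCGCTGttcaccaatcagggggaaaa
PCDHGA5: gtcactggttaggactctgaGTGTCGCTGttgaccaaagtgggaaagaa
PCDHGA8: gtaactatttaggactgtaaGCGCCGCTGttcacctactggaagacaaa
PCDHGA10: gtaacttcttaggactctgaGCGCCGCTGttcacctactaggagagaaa
PCDHGB1: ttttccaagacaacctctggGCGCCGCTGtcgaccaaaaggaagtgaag
PCDHGB5: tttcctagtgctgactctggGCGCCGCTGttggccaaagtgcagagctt
PCDHGA11: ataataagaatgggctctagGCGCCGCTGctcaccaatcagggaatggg
PCDHGC3: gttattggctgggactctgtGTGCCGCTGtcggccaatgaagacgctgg
PCDHGC4: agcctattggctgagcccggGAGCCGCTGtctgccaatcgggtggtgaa
The PCDHGA4 window lies at chr5:141354952-141355000 and the PCDHGA8 window at chr5:141392560-141392608, both on the plus strand. A shorter sequence that overlaps the first, CGCTGTT, was in 13 of the 17 listed genes, in 0 of the 3 unlisted gamma genes with a window and in 2.73% of all genes. Both sequences were chosen after the windows had been read, so these counts describe the windows and are not a test.

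The values come from 3 of the authors' deposited tables, each comparing an altered group with the same wild-type libraries. For each gene they hold its log2 fold change, its mean expression (log2 of CPM, the counts scaled to a common library total), an F score and p-values, and no value per library, so neither the spread between libraries nor their depth can be shown. The genes listed are those with a mean expression above 1 on the log2 scale, a log2 fold change beyond 1 in either direction and an unadjusted p under 0.05. A gene that is not listed has no value here, and this does not show that it was at the control level. In the knockout, TASOR itself was listed at a log2 fold change of -1.08 (approximate SE 0.23, derived from the F score), and with FLAG-TASOR2, TASOR2 was listed at 2.26 (0.27) in the authors' deposited tables. With FLAG-TASOR neither was listed.

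The loss of TASOR was examined first. In TASOR knockout cells 17 gamma protocadherins were listed as higher than in wild-type controls and 0 as lower, while 0 of 15 alpha and 0 of 16 beta genes were listed. The control levels of the 17 implied by the deposited values, derived below, were 0.218 to 1.46 CPM, under the expression limit. None of the 17 could therefore have been listed as lower, and the count of 0 was fixed by the limits. Of all 13992 genes tested, 0.979% were listed as higher and 0.936% as lower in this comparison. The median log2 fold change of the 17 was 3.94 in the authors' deposited table, beside 1.91 for all 137 genes listed as higher. From the implied control levels, only 4 of the 17 could reach the expression limit at a log2 fold change of 2 or less. The limit itself thus raises the members' median, and nothing is read from its distance to that of all genes listed as higher. None of the 17 reached an adjusted p of 0.05: 0 members were called at that threshold, at which 0.00715% of all genes were called, and the members' adjusted p ran between 0.628 and 1.00. Unadjusted p was below 0.01 for 15 of the 17 and for 55 of the 137 genes listed as higher, which include the members. The expression limit bears on these shares too, and nothing is read from the distance between them. In bulk RNA, more cells expressing a gene and more RNA per expressing cell cannot be told apart.

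The 17 listed genes were the first 17 of the 22 gamma genes in chromosomal order, without a gap. They run over PCDHGA1 (start 141330571) to PCDHGB7 (start 141417645), and include all 7 genes of the B subfamily and 10 of the 12 genes of the A subfamily. The 5 genes that follow, PCDHGA11, PCDHGA12, PCDHGC3, PCDHGC4 and PCDHGC5 (starts 141421047 to 141489121), were not listed in any table. The C-type genes PCDHGC3, PCDHGC4 and PCDHGC5 are known to be regulated apart from the A and B types. All 22 genes end at the same constant exons. The last listed gene, PCDHGB7, passed the expression limit of 1 with a log2 mean expression of 1.01, and the 5 genes after it have no value, so the end of the run and the listing limits cannot be told apart.

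**Figure D1:**
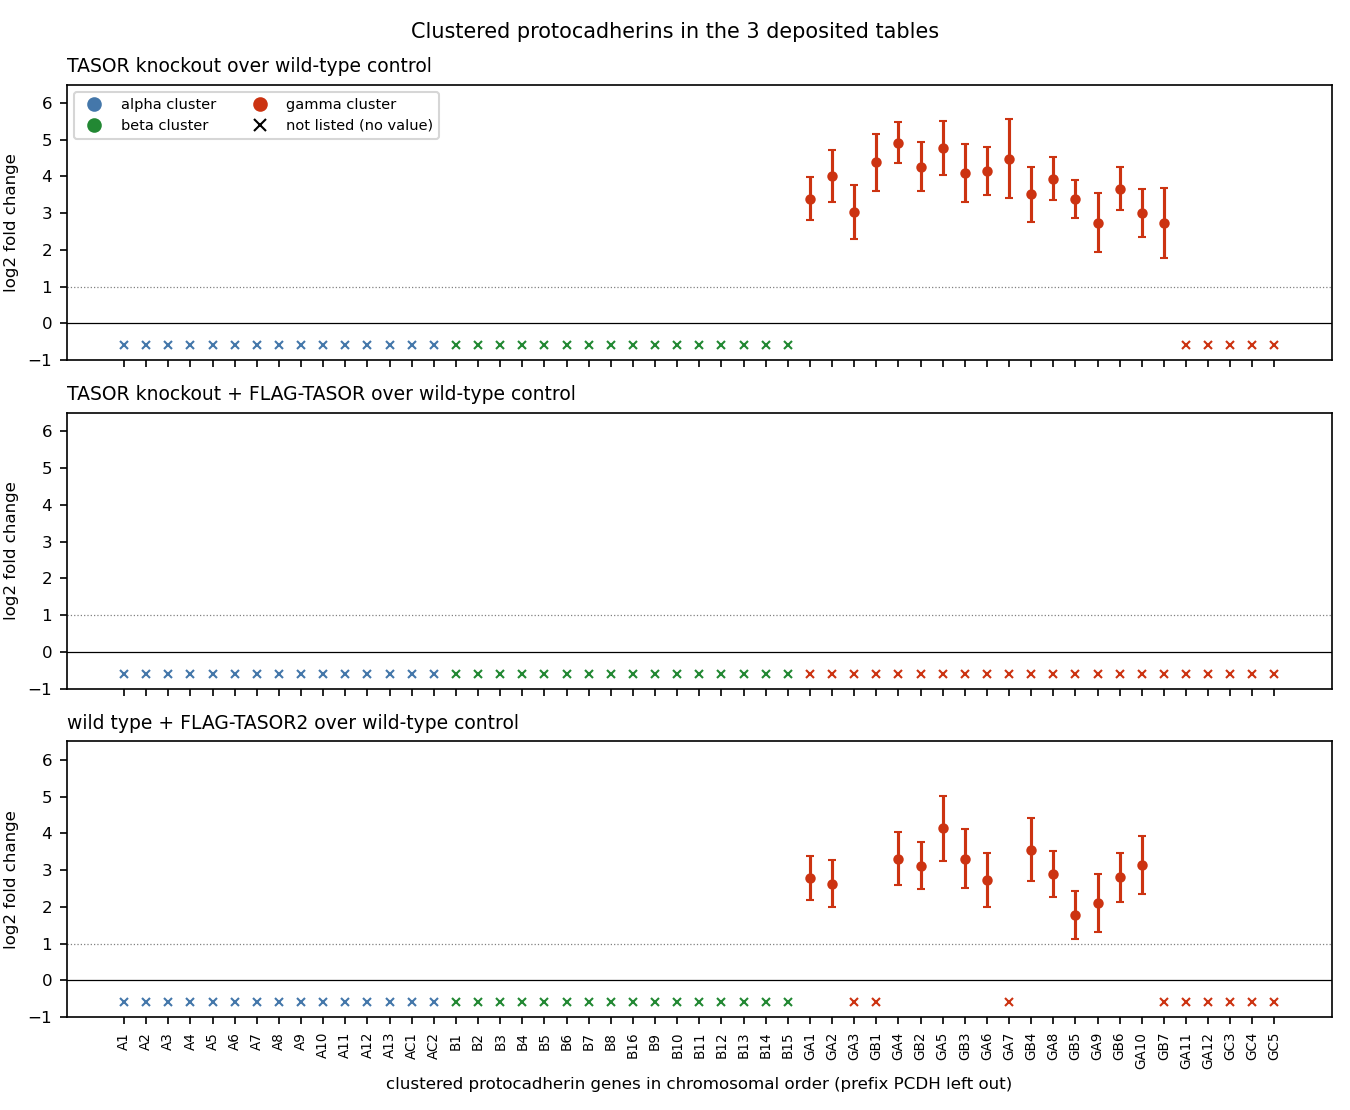
Log2 fold change of each of the 53 clustered protocadherin genes (x axis, chromosomal order) over wild-type control, in TASOR knockout cells (top), knockout cells with FLAG-TASOR (middle) and wild-type cells with FLAG-TASOR2 (bottom). Points are deposited values with approximate SE bars, crosses mark genes that were not listed and have no value, and the dotted line is the listing limit of 1; the 17 points of the top panel are the first 17 gamma genes.

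Within this run, the size of the difference varied along the cluster. PCDHGA4 (ENSG00000262576) had the highest value among the members, a log2 fold change of 4.91 (approximate SE 0.56, approximate 95% interval 3.50 to 6.33) in the authors' deposited table. Its deposited unadjusted p of 0.000224 ranked 5 among the 268 listed genes. PCDHGA5 followed at 4.77 (approximate SE 0.74) in the authors' deposited table. From PCDHGB1, the fourth gene, to PCDHGA7, the tenth, all 7 values lay between 4.09 and 4.91 in the authors' deposited table. The last 5 listed genes, PCDHGB5, PCDHGA9, PCDHGB6, PCDHGA10 and PCDHGB7, lay between 2.74 and 3.67. These are the genes nearest to the unlisted end of the cluster. At the opposite end, PCDHGA1, PCDHGA2 and PCDHGA3 were at 3.39, 4.02 and 3.02, so values in the range of the last 5 occurred there too. Spearman's rho between position and log2 fold change was -0.48 over the 17 genes, which share libraries, controls and constant exons, and it is given as a description. The approximate SEs of the members ran from 0.51 to 1.08. With the members ranked by fold change, each lay within 1 approximate SE of the next.

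The A and B subfamilies, which differ in the sequence of their first exons, overlapped in fold change. The 10 listed A genes had a median log2 fold change of 3.98 (2.74 to 4.91) in the authors' deposited table. The 7 B genes had a median of 3.67 (2.74 to 4.38) in the same deposited table. The 2 lowest members were PCDHGA9, at 2.74 (approximate SE 0.81), and PCDHGB7, at 2.74 (0.95), in the authors' deposited table, and PCDHGB7 was also the member nearest to the expression limit, with a log2 mean expression of 1.01. Their unadjusted p of 0.0174 and 0.0317 in the authors' deposited table were the highest of the 17, and their intervals of 0.71 to 4.77 and 0.35 to 5.13 reach below the listing limit of 1. For the other 15 members the interval lay above 1. All these intervals are of genes that had already passed the listing limits, and they are not adjusted for that selection.

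The tables' fold change and mean expression together imply a level for each group, if the mean is taken over both groups with equal weight. Implied levels of PCDHGA8 were 22.4 CPM in knockout cells and 1.46 CPM in controls, and those of PCDHGA4 were 15.9 CPM in knockout cells and 0.526 CPM in controls. At the low end, PCDHGA7 came to 4.86 CPM in knockout cells and 0.218 CPM in controls. Over the 17 members, implied levels were 3.50 to 22.4 CPM (median 8.83) in knockout cells and 0.218 to 1.46 CPM (median 0.597) in controls, so the ranges did not overlap. This separation follows from the fold changes and adds no evidence to them. As a check on the derivation, control levels implied by the knockout table and by the FLAG-TASOR2 table differed by a median of 0.13 on the log2 scale, and by at most 0.31, over the 13 members listed in both.

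**Figure D2:**
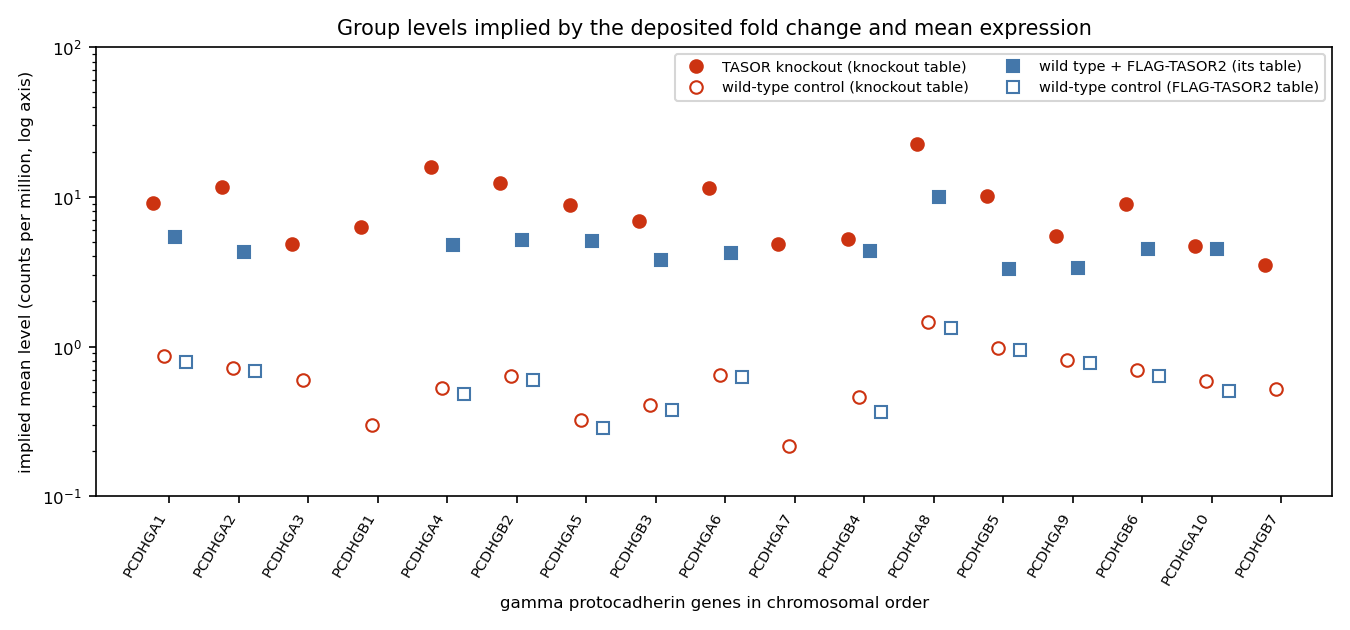
Mean level of each listed gamma protocadherin in CPM (log axis) implied by the deposited fold change and mean expression, for TASOR knockout and its controls (red) and FLAG-TASOR2 and the same controls (blue). Filled symbols are the altered groups and open symbols the controls; all filled symbols lie above 3 CPM and all open ones below 1.5 CPM, and no error bars are shown because the tables hold no value per library.

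Levels compared between genes need a length, and here only the exon bases that no other member carries were used. Per kilobase of such bases, PCDHGA4 had the highest implied level in knockout cells, at 5.86 CPM per kb, against 0.194 in controls. PCDHGA8 followed at 5.32 CPM per kb in knockout cells and 0.347 in controls. PCDHGB2 was at 4.76 CPM per kb in knockout cells, against 0.247 in controls. The lowest was PCDHGA10, at 1.06 CPM per kb in knockout cells and 0.131 in controls. In controls the highest was PCDHGB5, at 3.78 CPM per kb in knockout cells and 0.364 in controls, so the order of the members differed between the groups. The sources used here do not say whether reads of shared exons entered the counts, and this scale assumes that they did not.

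Between 27.6% and 64.4% of a listed member's exon bases are shared with other members. PCDHGB4 and PCDHGA8 share a further 2266 bases with each other, and their values are the least separable. Within the variable exons, a median of 11.3% of 50-base stretches (0 to 20.4%) also occurred in the variable exon of another clustered protocadherin. The highest shares were those of PCDHGB5 (20.4%) and PCDHGB4 (20.4%), while PCDHGA4 and PCDHGA5, with the highest fold changes in the knockout, had 1.57% and 0.759%, and PCDHGA9, with the lowest, had 1.31%. The 17 genes form 1 locus and are not 17 independent observations.

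**Figure D3:**
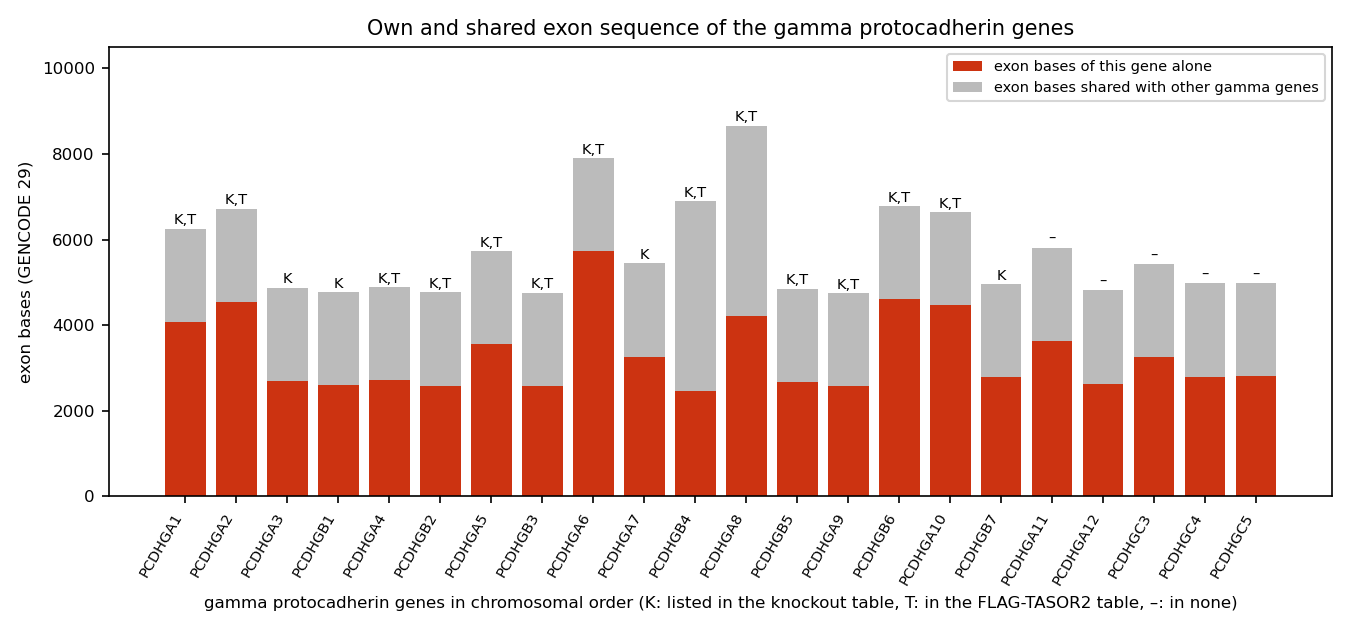
Exon bases (y axis, GENCODE 29) of the 22 gamma protocadherin genes in chromosomal order, split into bases of the gene alone (red) and bases shared with other gamma genes (grey). Letters above the bars mark listing in the knockout (K) and FLAG-TASOR2 (T) tables; the unlisted genes at the right carry 2634 to 3633 bases of their own, within the range of 2459 to 5729 of the listed ones.

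The second comparison set TASOR knockout cells with the FLAG-TASOR transgene against these controls. No clustered protocadherin was listed: the count was 0 of 53, beside 0.609% of the genes tested that were listed as higher and 1.26% as lower, taking the largest row number in this table, 13957, as the number tested. At an adjusted p of 0.05 the authors' deposited edgeR-type F-test called 0 genes in this table, and all 261 listed genes had an unadjusted p below 0.05. The members have no value in this table, and which of the limits each one missed is not known. From the implied control levels, a log2 fold change of 0.80 would have brought PCDHGA8 to the expression limit, whereas PCDHGA7 would have needed 4.12. For 4 members, PCDHGA8, PCDHGB5, PCDHGA1 and PCDHGA9, a log2 fold change of at most 2 would have sufficed. For PCDHGA8 any increase past the fold limit of 1 would also have passed the expression limit. Unless it was lower than in controls, its absence thus rests on the fold or the p limit. A decrease would have left it under the expression limit. The difference between knockout cells with and without FLAG-TASOR was not tested, because members not listed have no value.

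The third comparison concerned the FLAG-TASOR2 transgene in wild-type cells. Here 13 gamma protocadherins were listed as higher and 0 as lower, and again 0 of 15 alpha and 0 of 16 beta genes were listed. With implied control levels of 0.286 to 1.33 CPM, under the expression limit, none of the 13 could have been listed as lower. The listed genes made up 2.56% (higher) and 3.76% (lower) of all 14001 genes tested. The median log2 fold change of the 13 was 2.90 in the authors' deposited table, beside 1.83 for all 358 genes listed as higher. As in the knockout, the expression limit raises the members' median, and nothing is read from the distance between these medians. Adjusted p of the members ran between 0.199 and 0.374, so that 0 were called at 0.05, at which 0.0357% of all genes were called. Unadjusted p was below 0.01 for 10 of the 13 and for 144 of the 358, which include the members. The expression limit bears on these shares too, and nothing is read from the distance between them. Both this comparison and that of the knockout use the 2 wild-type control libraries, so members found in both are not independent evidence.

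PCDHGA5 (ENSG00000253485) was the highest member with FLAG-TASOR2, at a log2 fold change of 4.14 (approximate SE 0.88, unadjusted p 0.00323) in the authors' deposited table. PCDHGB4 was at 3.56 (0.86) and PCDHGB3 at 3.31 (0.81) in the same deposited table. The lowest were PCDHGB5 at 1.78 (0.66) and PCDHGA9 at 2.11 (0.79) in the authors' deposited table. Their intervals, 0.17 to 3.39 and 0.17 to 4.04, reach below 1, as does that of PCDHGA6 (0.92 to 4.54), while those of the other 10 lay above it. These intervals too are not adjusted for the selection by the listing limits. PCDHGA9, PCDHGB3 and PCDHGB5 had log2 mean expressions of 1.04, 1.05 and 1.08, just inside the limit of 1. Implied levels of the 13 were 3.27 to 9.95 CPM (median 4.45) in FLAG-TASOR2 cells and 0.286 to 1.33 CPM (median 0.630) in controls. By subfamily, the 8 listed A genes had a median of 2.84 and the 5 listed B genes one of 3.12 in the authors' deposited table. Spearman's rho between position and log2 fold change was -0.14 over the 13 genes, as a description.

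All 13 members listed with FLAG-TASOR2 were among the 17 listed in the knockout, which is 100% of the shorter list and 76.5% of the longer. Over all genes, 100 were listed in both comparisons, of 268 listed in the knockout and 884 with FLAG-TASOR2. The shared control libraries enter both lists, and the members form 1 locus, so the overlap is given as a description. Set side by side, the log2 fold change was lower with FLAG-TASOR2 than in the knockout for 11 of the 13. For PCDHGA4 the authors' deposited tables gave 3.31 (0.72) with FLAG-TASOR2 and 4.91 (0.56) in the knockout. For PCDHGB5 the authors' deposited tables gave 1.78 (0.66) with FLAG-TASOR2 and 3.38 (0.51) in the knockout. The exceptions were PCDHGB4, at 3.56 (0.86) with FLAG-TASOR2 and 3.51 (0.74) in the knockout, and PCDHGA10, at 3.14 (0.80) with FLAG-TASOR2 and 3.01 (0.66) in the knockout, all from the authors' deposited tables. Over the 13, the authors' deposited tables gave medians of 2.90 with FLAG-TASOR2 and 3.94 in the knockout. The difference between the altered groups could not be tested, since the tables hold no value per library.

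The 4 members listed in the knockout alone were PCDHGA3, PCDHGB1, PCDHGA7 and PCDHGB7. Their log2 mean expression in the knockout table ran between 1.01 and 1.71, with a median of 1.39 beside 2.31 for the 13. From the implied control levels, PCDHGA3 would have reached the expression limit at a log2 fold change of 2.51, PCDHGB7 at 2.73, PCDHGB1 at 3.62 and PCDHGA7 at 4.12. The last pair lie above the median of 2.90 measured for the listed members, so for these the expression limit alone could keep a gene out of the table at that fold change.

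**Figure D4:**
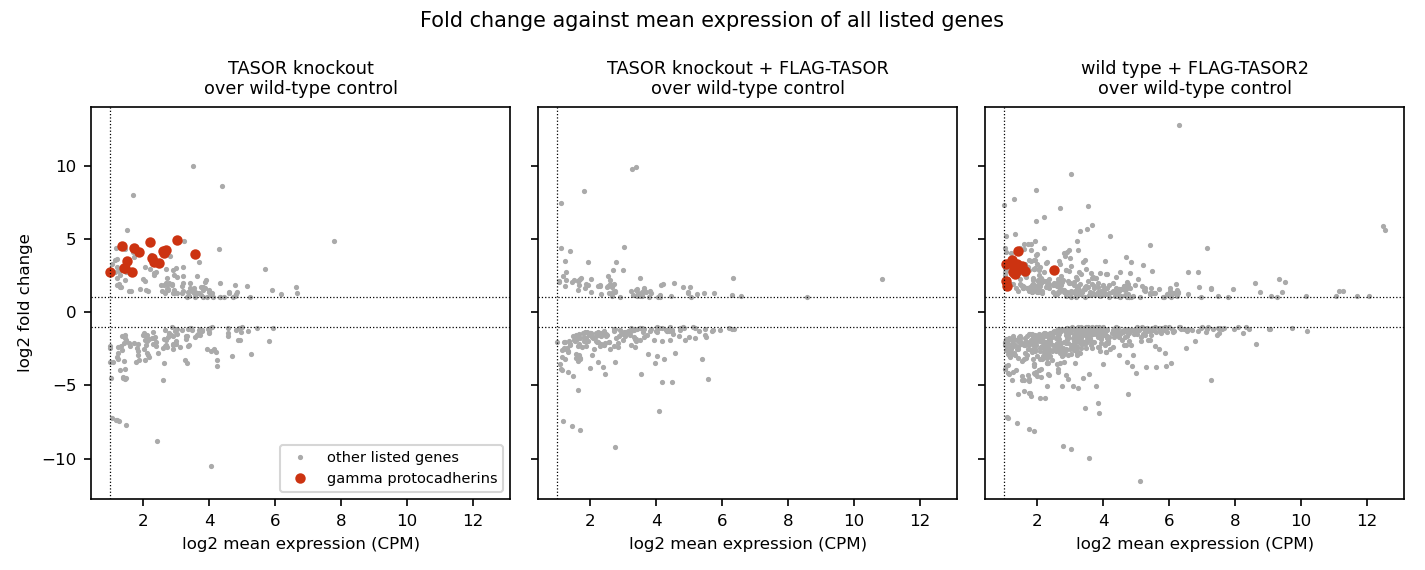
Log2 fold change over wild-type control against log2 mean expression for every listed gene in the panels from left to right (TASOR knockout, knockout with FLAG-TASOR, wild type with FLAG-TASOR2). Red points are gamma protocadherins and grey points the other listed genes, with the listing limits as dotted lines; in both tables that list them, the protocadherins lie at low mean expression, 2 of 17 and 0 of 13 reaching the median of the listed genes.

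Fold changes of this size were also found outside the clusters. In the knockout table, 45 of 137 genes listed as higher had a log2 fold change at least as high as the lowest member, and 17 of these 45 were the members. In the FLAG-TASOR2 table, 194 of 358 reached the lowest member, 13 of them members. By unadjusted p, 7 of the 20 top genes of the knockout table were members, and 0 of the 20 top genes of the FLAG-TASOR2 table. The expression limit let in most members only at a high fold change, so these counts are a description.

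The counts of listed genes among and around the clusters stand beside shares over all genes of 0.979% listed as higher and 0.936% as lower in the knockout, and 2.56% and 3.76% with FLAG-TASOR2. How many of these neighbours were tested is not known, so nothing is read from their counts. Between the first alpha and the last gamma gene, GENCODE 29 places 31 genes that are not members, among them 3 protein-coding ones, and 0 of the 31 were listed in any table. They include TAF7, which encodes a subunit of the TFIID transcription factor, and SLC25A2, a mitochondrial ornithine carrier, both between the beta and gamma clusters. Within 1 Mb of either end, 3 of 68 further genes were listed, all with FLAG-TASOR2 and all as lower. ARAP3, a GTPase-activating protein whose gene lies on the minus strand with its nearer end 140420 bases past the gamma cluster, was at -2.49 (0.36). PCDH1, a protocadherin outside the clusters, was at -2.76 (1.01), and SPRY4, an inhibitor of receptor tyrosine kinase signalling, at -1.43 (0.58), in the authors' deposited table. None of the 3 had an adjusted p below 0.05 (the lowest was 0.125).

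With shares over all genes this low, the counts for other adhesion and chromatin genes are given as a description. Of 27 non-clustered protocadherins and large cadherins, 0 were listed in the knockout, 0 with FLAG-TASOR and 1 with FLAG-TASOR2, which was PCDH1. Of 26 classical cadherins and catenins, CDH18 was listed as higher with FLAG-TASOR2, at 2.85 (1.07) in the authors' deposited table, and 0 in the other tables. Of 22 partners of protocadherin signalling, CYFIP2, a subunit of the WAVE actin regulator, was listed as lower with FLAG-TASOR2, at -2.00 (0.67) in the authors' deposited table. None of 15 CTCF and cohesin genes and none of 21 heterochromatin and DNA methylation genes was listed in any of the 3 tables (0 in each). Among 15 genes of HUSH and its partners, TASOR and TASOR2 were the listed ones.

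Protocadherins are best known from neurons, and neuronal markers were checked beside them. Of 14 neuronal markers, 0 were listed in the knockout and 0 with FLAG-TASOR, while SYP, which encodes synaptophysin of synaptic vesicles, was listed as lower with FLAG-TASOR2, at -2.68 (0.61) in the authors' deposited table. None of 8 glial and none of 7 fibroblast markers was listed in any table (0 in each). Of 12 erythroid markers of K-562 cells, 0 were listed in the knockout, HBE1 was listed as higher with FLAG-TASOR, and HBA1, HBA2, HBZ and SLC4A1 were listed as higher with FLAG-TASOR2. Over every gene tested, the background share was 0.979% (higher) and 0.936% (lower) in the knockout. It was 0.609% and 1.26% with FLAG-TASOR, and 2.56% and 3.76% with FLAG-TASOR2. At such shares a count of 0 is the usual outcome for lists this short, so nothing is read from the counts of 0. Erythroid markers were listed beside the protocadherins in the FLAG-TASOR2 table and not in the knockout table. This contrast is a description, and the part of these markers in the result was not tested. Since the tables list changed genes alone, they cannot show whether these markers were present or absent.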

How the data were processed

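The members, gene lists and summaries were chosen with earlier results of these data known. Per the submitters' processing notes, the authors used hg38, STAR 2.7.8, DESeq2, edgeR and Salmon, with no role stated. Whether reads were counted by strand was not stated either. Per the file headers, the authors deposited the log2 fold change of each gene, its mean expression on a log2 scale, the F score of its test and the p-value, unadjusted and adjusted. The authors' column names match an edgeR quasi-likelihood table, and no model was refitted. The number of genes tested was the adjusted p over the unadjusted p for the gene with the smallest p, or the largest row number. An approximate SE is the size of the log2 fold change over the square root of F. Intervals at the 95% level use the t distribution with the degrees of freedom recovered from F and p (5.36 in the knockout and 6.01 in the FLAG-TASOR2 table). These steps were run on simulated data built with the same formulas. That run checks the arithmetic and not whether the authors' values follow the formulas. Depth per library is unknown. The labels give 2 libraries per group, called biological replicates, and p-values rest in part on the spread between them, which may be technical. The recovered degrees of freedom exceed what 2 libraries per group can give, so the p-values do not rest on that spread alone. Positions and exons came from GENCODE 29 (GRCh38, the assembly of hg38), matched by Ensembl identifier, and 6 pseudogenes with similar symbols were not counted as members. A listed gene whose identifier is not in that release has no position here, and the authors' counts may rest on other exon limits. Every listed member was named, and of each gene list every listed member. Python 3.11.15, pandas 2.3.3 and scipy 1.17.1 were used.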

Additional observations from a re-analysis of the deposited data

How the results depend on the processing

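Counts of listed members stayed within 1.5 times with an unadjusted p below 0.01 (15 in the knockout, 10 with FLAG-TASOR2), with an absolute log2 fold change above 2 (17 and 12), and with pseudogenes counted (17 and 13). By the implied control levels, only 4 of the 17 could reach the expression limit at a log2 fold change of 2 or less. The fold setting was thus largely met by being listed, and its counts say little about stability. Restricting to genes at or above the median expression of the table left 2 members in the knockout and 0 with FLAG-TASOR2, and an adjusted p below 0.05 left 0 in both. With FLAG-TASOR the count was 0 under all 5 settings, of which only the counting of pseudogenes could have given another number. Median log2 fold changes moved by less than the members' median SE, to 3.79 to 4.43 in the knockout and 2.88 to 2.95 with FLAG-TASOR2, where the expression filter left no member to summarise. No paired analysis was possible because the deposited tables hold no value per library, and leaving out replicates was not run for the same reason.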

Other observations

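The alpha and beta promoters carry related sequences of their own. Of their genes 0 were listed, beside 0.979% of all genes listed as higher in the knockout and 2.56% with FLAG-TASOR2. Genes that are not listed have no value here, so nothing is read from this count. GGTGGCGCTG was in 12 of 14 beta genes with a window, in 0 of 13 alpha and 0 of 20 gamma genes, and in 0.341% of all genes. ATGTCGCT was in 9 of 13 alpha genes, in 0 beta and 0 gamma genes, and in 0.282% of all genes. Both were searched on both strands and chosen after the windows had been read. The beta sequence overlaps GNGNCGCTG, which was in 12 of the 14 beta genes, as well as in 18 of the 20 gamma genes.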
